A study of Saccharomyces cerevisiae with 4 samples.

Results

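The comparison described here was between yeast lacking SNF2 and otherwise wild-type yeast, with 1 RNA-sequencing library for each strain. Both strains were haploid Saccharomyces cerevisiae of the BY4741/2 background with the genotype his-ura-leu-, and the strain snf2∆ carried snf2-delta:NatMX, a drug marker in place of the gene. Cells were taken in mid-log growth in rich medium with glucose, and the transcriptomes were depleted of ribosomal RNA. The series holds another 2 libraries of the same background, ume6∆ (ume6-delta:KanMX) and the double deletion ume6∆snf2∆, which form a second pair with and without SNF2. Levels are RPKM, reads divided by gene length and library total, so that RNA per cell was not measured. Each column was divided by its median ratio to the geometric mean of each gene over the 4 libraries. The change of a gene is the difference of log2(scaled RPKM + 1), snf2∆ minus WT, which understates the change of genes with low values. Of 6659 genes, 5856 averaged 10 RPKM or more across the 4 libraries. Of these, 21 were left out, namely SNF2, genes particular to a cells or alpha cells, the mating-type loci and strain marker genes, so that 5835 genes were kept. A gene is called higher or lower here at a difference of at least 2-fold on that scale.

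SNF2 (YOR290C, chrXV:855147-860258) had 64.2 RPKM in WT and 0.108 in snf2∆, or 9627 and 14 reads, as the strain names state. The neighbouring genes on chromosome XV did not pass 2-fold, with 50.1 and 39.4 RPKM for YPK9 on one side and 33.1 and 24.5 for YOR289W on the other. The libraries also differed in mating type. STE2, the receptor of a cells for alpha-factor, had 394 RPKM in WT and 6.39 in snf2∆, and STE3, which alpha cells use to sense a-factor, had 3.40 and 168. HMRA1 had 702 reads in WT and 0 in snf2∆. Mating type is not given in the labels, and its part in any difference between these libraries cannot be told apart from that of Snf2. Of the marker genes, LEU2 had 0 reads in both libraries, URA3 had 2 and 1, MET17 had 0.894 and 0.831 RPKM and LYS2 had 129.8 and 308. HIS3 had 176 and 315 RPKM although both strains are labelled his-. The columns had been scaled to 27.7 M reads in WT and 25.7 M in snf2∆, and the median kept gene had 1706.5 and 1419 reads. There was 1 library per strain, so differences carry no replicate check and no test. Intervals are exact 95% Clopper-Pearson intervals of the ratio of levels from recovered read counts and cover counting error only.

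Snf2 is the ATPase of the Swi/Snf complex, which uses ATP to slide and evict nucleosomes and is brought to promoters by sequence-specific activators. The complex is known for its part in switching on inducible yeast genes, such as those for mating-type switching, sucrose, inositol and phosphate, and cells without it are viable. It can also lower the level of a gene, for which SER3 is the known example: transcription of the non-coding RNA SRG1 across the SER3 promoter represses it and depends on Swi/Snf.

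Without SNF2, 207 of 5835 genes (3.55%) were at least 2-fold higher and 341 (5.84%) at least 2-fold lower, together 9.39%. The median change was 0.0020, the quartiles were -0.33 and 0.32, and 68.8% of genes were within 0.5 of no change. The falls were larger than the rises. At 4-fold, 96 genes were lower and 37 higher, at 8-fold 30 and 9, and at 16-fold 13 and 1. Of the 548 called genes, 0 of those with recovered reads had a counting interval that included a ratio of 1. Called genes without a place in the annotation have no interval. HSP12 (YFL014W, chrVI:107256-107585), a small heat shock protein that sits on membranes, had 777 RPKM in WT and 5.04 in snf2∆, which is 154-fold lower in level. CAR1 (YPL111W, chrXVI:339944-340945), the arginase that starts arginine breakdown, had 17.1 RPKM in WT and 277 in snf2∆, a ratio of 16.2 (95% interval 14.8 to 17.8). It also had 310 RPKM in ume6∆, which has SNF2. A larger rise, from 1.61 to 169 RPKM, was listed for YKL177W, an open reading frame that is not in the annotation used here and whose systematic name is next to that of STE3 (YKL178C). YKL177W is the 1 gene counted as at least 16-fold higher. STE3, which was left out, had 3.40 and 168 RPKM, and whether YKL177W holds reads of STE3 was not tested. Genes without a place in the annotation could not be screened for overlap with the genes left out. Genes without a place in the annotation made up 22 of the genes higher and 30 of those lower. The calls were spread over levels of expression, since the 1167 most expressed genes had 69 higher and 67 lower and the 1167 least expressed 30 and 86.

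**Figure D1:**
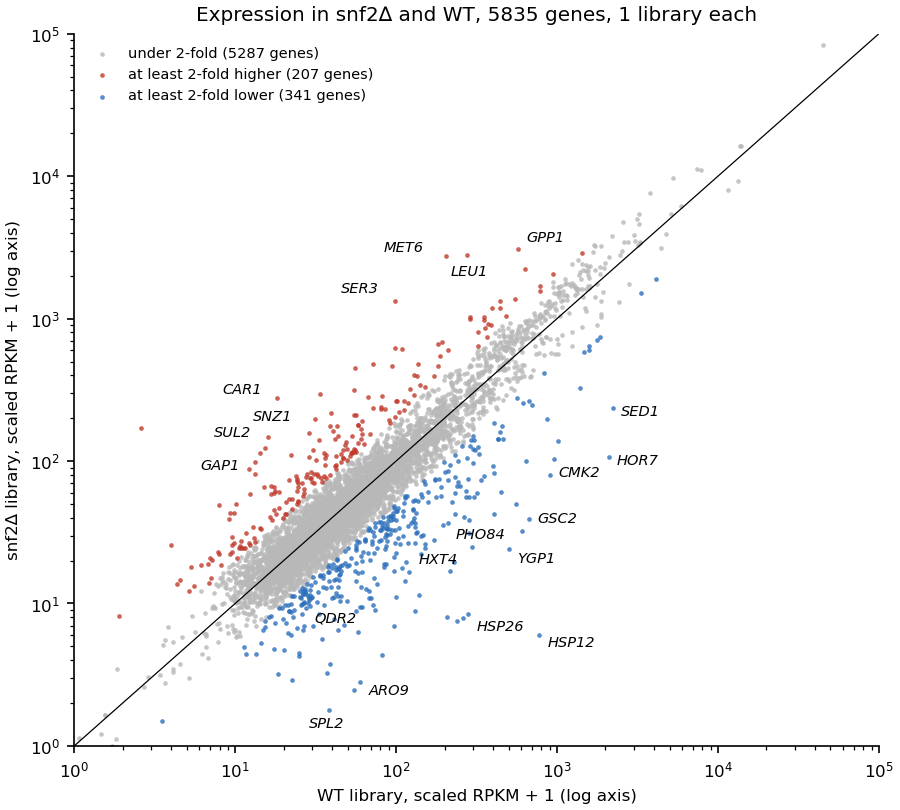
Scaled RPKM + 1 of 5835 genes in the WT library (horizontal, log axis) and the snf2∆ library (vertical, log axis), 1 library each, with the line of equal levels. The 341 genes at least 2-fold lower (blue) reach farther from the line than the 207 higher (red), with HSP12 at 777 and 5.04 RPKM.

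The windows upstream of 5 genes are printed because they hold a pair of matches each to the letters recognised by the activators of the gene groups described next. Each window is 250 bases, from 300 to 51 bases before the annotated start, taken from the R64 genome of RefSeq, the assembly behind sacCer3, and written along the gene's strand. Capitals mark TGACTC, the core site of Gcn4, activator of amino acid synthesis, upstream of SNZ1 (chrXIII:458108-458357, plus strand) and ARG5,6 (chrV:295110-295359, plus strand), both higher in snf2∆. Capitals mark CACGTG, bound by Cbf1 and Pho4, upstream of MET10 (chrVI:213012-213261, plus strand), which was higher, and of SPL2 (chrVIII:375151-375400, minus strand), which was lower. They mark CCCCT, the stress element of Msn2 and Msn4, upstream of HSP12 (chrVI:106956-107205, plus strand), which was lower. A match is a description of these letters and not a measured site.
SNZ1: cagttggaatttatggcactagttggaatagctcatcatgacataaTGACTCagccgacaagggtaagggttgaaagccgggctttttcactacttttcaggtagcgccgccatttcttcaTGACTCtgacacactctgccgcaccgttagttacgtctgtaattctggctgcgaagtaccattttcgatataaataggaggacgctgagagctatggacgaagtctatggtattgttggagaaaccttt
ARG5,6: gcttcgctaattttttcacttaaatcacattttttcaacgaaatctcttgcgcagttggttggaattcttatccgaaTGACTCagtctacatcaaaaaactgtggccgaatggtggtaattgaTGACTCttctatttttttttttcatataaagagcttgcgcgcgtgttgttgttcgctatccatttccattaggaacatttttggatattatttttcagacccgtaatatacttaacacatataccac
MET10: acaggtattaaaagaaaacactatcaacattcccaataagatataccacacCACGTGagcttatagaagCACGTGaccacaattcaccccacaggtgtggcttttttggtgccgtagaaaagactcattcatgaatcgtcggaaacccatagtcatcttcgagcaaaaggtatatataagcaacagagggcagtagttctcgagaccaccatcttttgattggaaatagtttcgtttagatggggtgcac
SPL2: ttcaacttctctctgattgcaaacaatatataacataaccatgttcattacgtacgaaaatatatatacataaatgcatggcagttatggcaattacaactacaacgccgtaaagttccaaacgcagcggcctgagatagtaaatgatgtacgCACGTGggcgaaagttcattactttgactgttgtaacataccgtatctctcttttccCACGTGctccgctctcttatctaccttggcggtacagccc
HSP12: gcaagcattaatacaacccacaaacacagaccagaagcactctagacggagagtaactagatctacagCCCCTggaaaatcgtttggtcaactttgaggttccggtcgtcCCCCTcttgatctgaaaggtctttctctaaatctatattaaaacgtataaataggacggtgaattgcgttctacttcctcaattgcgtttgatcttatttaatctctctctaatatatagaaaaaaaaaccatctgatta

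Genes that bring in sulfate and reduce it to sulfide were higher in snf2∆ almost throughout. Of 10 kept, 9 were higher and 0 lower, and their median change was 2.39 against 0.0020 over all genes. The sulfate permeases SUL1 and SUL2 had 15.7 and 57.4 RPKM and 15.0 and 146 in WT and snf2∆. Among the reducing enzymes, in the order of the pathway, ATP sulfurylase, MET3, had 38.2 and 217 RPKM, PAPS reductase, MET16, had 27.6 and 156, and the sulfite reductase subunits MET5 and MET10 had 54.7 and 448 and 70.6 and 483. MET1 and MET8, which make the siroheme cofactor of sulfite reductase, had 21.2 and 109.8 and 6.16 and 19.1 RPKM, and MET22, which clears the by-product of reduction, had 80.5 and 285. The member under 2-fold was MET14, APS kinase, with 131 and 227 RPKM (log2 change 0.79). MET17, which joins the sulfide to a carbon chain, was a strain marker at under 1 RPKM in both libraries.

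Downstream of sulfide, 7 of 20 genes for methionine, cysteine and S-adenosylmethionine were higher and 0 lower (median 0.48). MET6 (YER091C, chrV:339864-342167), the methionine synthase, had 202 RPKM in WT and 2732 in snf2∆, a ratio of 13.5 (95% interval 13.3 to 13.7). MET13, counted with the one-carbon genes, supplies the methyl group for that step and had 32.8 and 292 RPKM. MET2, STR2, STR3 and HOM2, which make homocysteine precursors from aspartate and cysteine, were also higher, with 34.4 and 113, 42.5 and 149, 39.8 and 162 and 349 and 982 RPKM. CYS3, which makes cysteine from cystathionine, had 321 and 644. Genes on either side of homocysteine were under 2-fold in part. SAM1 and SAM2, the S-adenosylmethionine synthetases, had 317 and 344 and 79.1 and 120.1 RPKM, SAH1 had 519 and 582 and CYS4, cystathionine beta-synthase, had 551 and 411. The methionine permease MUP1 had 102 and 145 RPKM, while MMP1, which takes up S-methylmethionine, was higher, with a change of 1.44. Among 6 regulators of the sulfur genes 1 was higher, MET28, a partner of the activator Met4, with 14.3 and 123 RPKM (log2 change 3.02). MET4 itself had 70.4 and 97.3 RPKM, its ubiquitin ligase MET30 had 43.5 and 76.0, and the DNA-binding partner CBF1 had 49.7 and 34.3.

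Serine synthesis was higher at the first step and one-carbon genes in part. Of 24 genes for serine, glycine and one-carbon units, 8 were higher and 0 lower (median 0.52). Both genes for phosphoglycerate dehydrogenase were higher, SER3 (YER081W, chrV:322686-324095) with 97.7 RPKM in WT and 1322 in snf2∆ and SER33 with 65.9 and 280.4. SER3 overlaps SRG1 on the same strand, and SRG1 was itself listed higher at 55.3 and 209.7 RPKM. Reads in the overlap may count for either gene, so the listed rise of SRG1 may hold reads of SER3, and the reverse. Their shares were not tested. SER1, the aminotransferase of that path, was higher at 187 and 543 RPKM, as was ADE3, a cytosolic one-carbon enzyme, at 364 and 746, and SER2, the phosphatase that ends the path, was under 2-fold at 46.9 and 71.8. CHA1, which breaks serine down, was higher too, at 79.8 and 237 RPKM. The cytosolic serine hydroxymethyltransferase SHM2 had 356 and 859 RPKM and the mitochondrial SHM1 199.8 and 268, a change of 0.42. The glycine cleavage genes GCV1, GCV2 and GCV3 were under 2-fold, with changes of 0.03, -0.08 and -0.27.

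Arginine synthesis genes lay above the median gene throughout. All 10 kept changed by between 0.66 and 2.53 with a median of 0.96, 4 were higher and 0 lower. The 4 were ARG3, ornithine carbamoyltransferase, with 53.5 and 313 RPKM, ARG5,6 (listed as ARG56), with 180.0 and 663, ARG1, argininosuccinate synthase, with 353 and 1026, and ARG4, its lyase, with 320.2 and 809. CPA1, of carbamoyl phosphate synthesis for arginine, was under 2-fold at 0.82. The start of the breakdown path was higher as well, through CAR1, but CAR2, which acts on the ornithine it gives, had 22.9 and 12.4 RPKM (log2 change -0.83). The mitochondrial carriers ORT1 for ornithine and ODC2 for oxodicarboxylates had 43.2 and 74.2 RPKM and 135 and 394, and the latter was higher.

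Of 12 genes for leucine, isoleucine and valine, 5 were higher and 0 lower (median 0.84). LEU1 (YGL009C, chrVII:476313-478652), isopropylmalate isomerase, had 274 RPKM in WT and 2778 in snf2∆, OAC1, a mitochondrial carrier that serves the leucine path, had 108 and 614, and ILV2, acetolactate synthase, had 394 and 1193. Copies of single steps differed in their calls. LEU4 was higher at 443 and 1185 RPKM and LEU9 was not, at a change of -0.49, and the mitochondrial transaminase BAT1 was higher at 443 and 1326 while the cytosolic BAT2 had 106 and 93.7.

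For lysine 3 of 8 genes were higher and 0 lower (median 0.45). These were both homocitrate synthases, LYS20 with 129 and 289 RPKM and LYS21 with 136 and 477, and LYS1, the last enzyme, with 56.8 and 177. For aromatic amino acids 1 of 13 passed, TRP3 with 110.3 and 262 RPKM (log2 change 1.24), although the list median was 0.74 and its lowest change 0.14. ARO3, ARO4 and TRP5 were under 2-fold at 0.85, 0.89 and 0.85. Histidine synthesis had 1 of 6 higher, HIS5 with 129 and 404 RPKM, and a median of 0.68, with HIS4 at 0.02. Among 13 genes for threonine, asparagine, glutamate, glutamine and proline 3 were higher and 0 lower. They were GDH1, the glutamate dehydrogenase of ammonium assimilation, with 286 and 1026 RPKM, glutamine synthetase GLN1 with 944 and 2072, and the mitochondrial aspartate aminotransferase AAT1 with 50.4 and 108. GCN4, the activator shared by these pathways, had 1127 and 1755 RPKM, a change of 0.64, and PCL5, the cyclin that marks Gcn4 for decay, was higher at 372 and 921. Transfer RNA synthetase genes had 0 of 21 called, with changes from -0.27 to 0.83.

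**Figure D2:**
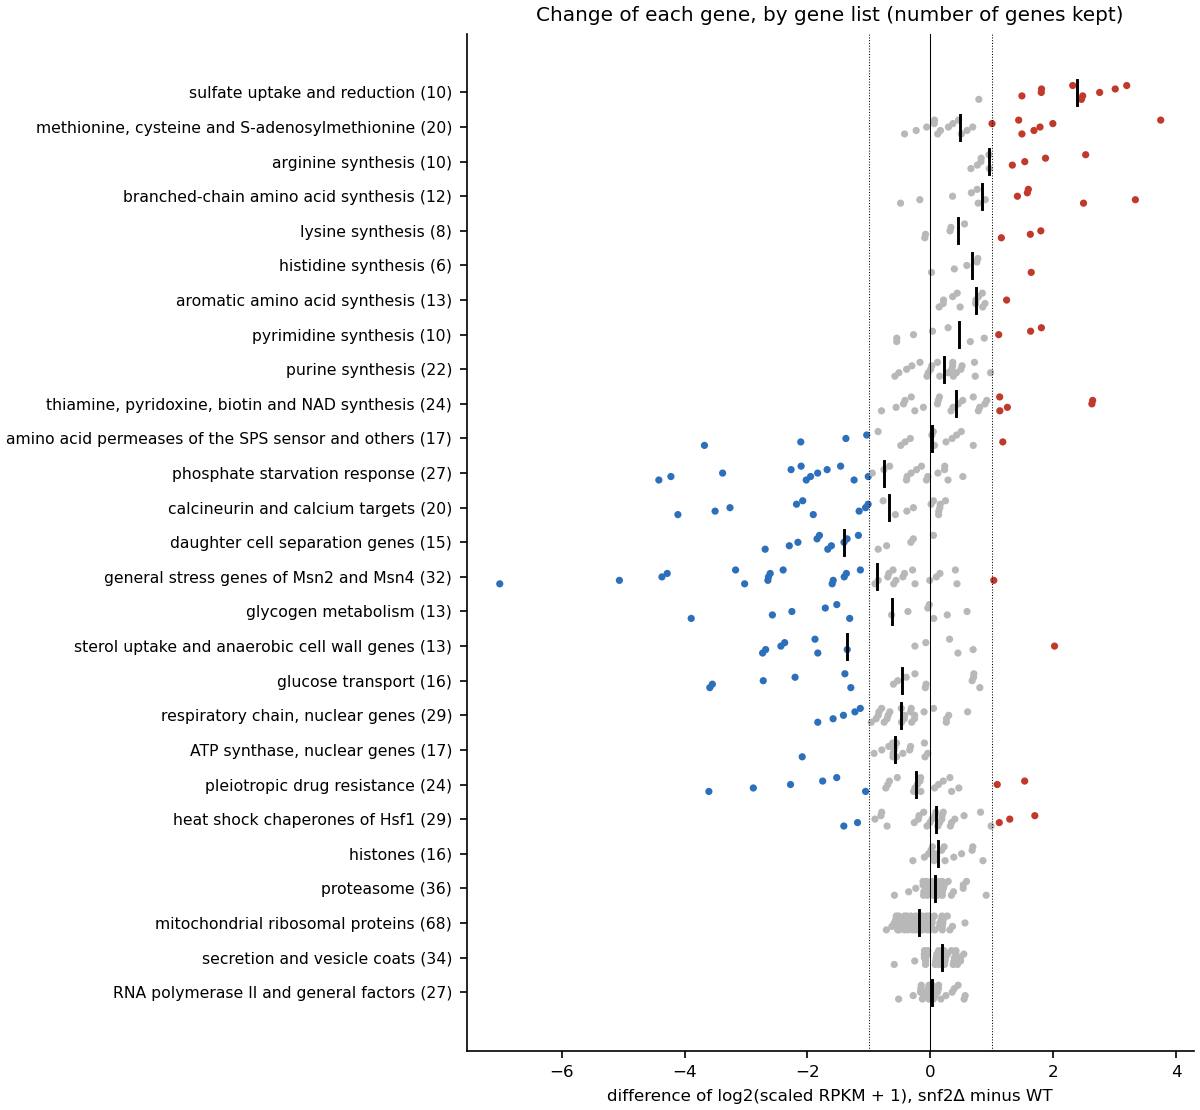
Change of each kept gene, as a difference of log2(scaled RPKM + 1) between snf2∆ and WT, for the named gene lists with the number of genes in parentheses. Red points are at least 2-fold higher, blue at least 2-fold lower and grey neither, and black bars are list medians, from 2.39 for sulfate uptake and reduction to -1.40 for daughter cell separation.

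For nucleotides, calls were made for pyrimidines. Of 10 pyrimidine genes 3 were higher and 0 lower: URA2, the enzyme of the committed step, with 285 and 1001 RPKM, URA4, dihydroorotase, with 60.4 and 189, and URA1, dihydroorotate dehydrogenase, with 479 and 1038. None of the 22 purine genes passed (0 higher and 0 lower), with a median of 0.22, and the range ran from -0.58 for IMD4 to 0.98 for ADE12. No test of the difference between these lists was made.

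Among 24 genes for vitamins and NAD 5 were higher and 0 lower (median 0.41). Many are low, and 2 were higher with a pseudocount of 5, 1 with a filter at 30 RPKM and 8 with a filter at 1. SNZ1, of pyridoxine synthesis, had 30.5 RPKM in WT and 195 in snf2∆, and its divergent partner SNO1, under 2-fold, had 21.8 and 28.5. BNA2, which starts NAD synthesis from tryptophan, had 6.93 and 48.1 RPKM and overlaps YJR079W on the same strand. BIO4, of biotin synthesis, had 8.36 and 21.3 RPKM, and SNO3 and SNZ3 had 10.2 and 23.5 and 11.1 and 25.5, although these have near-identical copies among which reads could be split. Thiamine genes gave no call, with 75.9 and 56.8 RPKM for the transporter THI7. Outside that list, RIB1 and RIB5, which begin and end riboflavin synthesis, were higher, with 35.7 and 109.6 and 208 and 601 RPKM.

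Genes that nitrogen-rich medium holds down gave a mixed picture, with 4 of 25 higher and 2 lower (median -0.13). GAP1, the general amino acid permease, had 12.2 RPKM in WT and 80.4 in snf2∆, the ammonium permease MEP3 had 60.1 and 154, urea amidolyase, DUR1,2 (listed as DUR12), had 22.7 and 77.4, and UGA3, an activator for GABA use, had 52.2 and 115. The allantoin genes stayed low, with 12.7 and 11.8 RPKM for DAL5 and 26.1 and 18.6 for DAL7. PTR2, the peptide transporter, was lower at 215 and 15.9 RPKM, and the vacuolar carboxypeptidase CPS1 at 299.5 and 149. The activators GLN3 and GAT1 had 41.9 and 56.9 and 49.7 and 48.0 RPKM.

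Amino acid permeases were lower in part. Of 17 kept, 4 were lower and 1 higher (median 0.024). The lower ones were PTR2 again, TAT1, for tyrosine and tryptophan, with 220.0 and 50.2 RPKM, and BAP2 and BAP3, for branched-chain amino acids, with 564 and 275 and 323 and 124. TAT1 overlaps another annotated gene. DIP5, for glutamate and aspartate, was higher at 67.6 and 154 RPKM, while CAN1, LYP1 and HIP1, for basic amino acids, had changes of 0.25, 0.35 and 0.43. The sensor SSY1 and its partners PTR3 and STP1 were at -0.33, 0.07 and 0.02. Of 9 genes that turn amino acids into fusel alcohols, 3 were lower and 0 higher. ARO9, an aromatic aminotransferase, had 59.1 RPKM in WT and 1.80 in snf2∆, ARO10, the decarboxylase that follows, had 56.8 and 5.34, and ATF2, an alcohol acetyltransferase, had 58.8 and 8.47. Their activator ARO80 had 16.7 and 17.5 RPKM.

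Genes that answer to phosphate shortage were lower in part, among them genes for uptake and for acid phosphatase. Of 27 kept, 12 were lower and 0 higher, and the median was -0.75. PHO84 (YML123C, chrXIII:24037-25800), the high-affinity transporter, had 605 RPKM in WT and 31.5 in snf2∆, SPL2, which switches off low-affinity uptake, had 37.4 and 0.798, and PHO89, the sodium-coupled transporter, had 38.1 and 2.76. An annotated gene lies across PHO84 on the other strand, and this kit does not keep the strand of a read. The acid phosphatases PHO3, PHO11 and PHO12 had 127 and 39.1, 42.4 and 10.2 and 43.8 and 9.42 RPKM, and PHO5 changed by -1.46, where PHO11 and PHO12 are near-identical copies. PHO3 is given with them although it is known as the constitutive acid phosphatase and not as one induced by phosphate shortage. Of the polyphosphate polymerase subunits VTC3 and VTC4 were lower at 130.4 and 35.8 and 199 and 98.1 RPKM, and VTC1 and VTC2 were not, at 379 and 305 and 113 and 86.5. The activator, its kinase and the low-affinity transporters were under 2-fold. PHO4, the activator, had 60.7 and 74.3 RPKM, the cyclin PHO80 and kinase PHO85 had 32.8 and 29.6 and 47.9 and 52.2, and the transporters PHO87, PHO90 and PHO91 had 42.7 and 50.3, 59.5 and 70.2 and 66.5 and 64.6. PHO81, the inhibitor of that kinase and itself a target of Pho4, was lower at 41.5 and 17.0 RPKM. PPN2, a vacuolar polyphosphatase outside the list, was lower at 282 and 37.5 RPKM.

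Genes activated by Msn2 and Msn4 in stress had 15 of 32 lower and 1 higher, with a median of -0.88. Besides HSP12, HSP26, a small heat shock protein, had 280.4 RPKM in WT and 7.43 in snf2∆, HOR7 had 2091 and 107 and YGP1, a secreted glycoprotein, had 499.7 and 23.2. GAD1, glutamate decarboxylase, had 67.0 and 9.87 RPKM, and RTC3 and TMA10 had 99.2 and 10.1 and 72.5 and 8.04. Other targets of the same activators did not pass. HSP104, the disaggregase, had 258 and 138 RPKM, GRE3, an aldose reductase, had 74.7 and 45.8, and OM45, of the outer mitochondrial membrane, had 29.2 and 29.1. The 1 higher member was ROQ1, with 9.20 and 19.9 RPKM (log2 change 1.03), and it was not called with unscaled RPKM, a pseudocount of 5 or a filter at 30 RPKM. YRO2 and MRH1, membrane proteins of the plasma membrane related to each other, were lower at 206 and 7.04 and 963 and 102 RPKM.

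Glycogen genes were lower at steps of both storage and release. Of 13 kept, 6 were lower and 0 higher (median -0.63). GPH1, glycogen phosphorylase, had 129.8 RPKM in WT and 7.81 in snf2∆, both glycogen synthases were lower, GSY2 at 115 and 18.4 and GSY1 at 48.8 and 9.44, and the debranching and branching enzymes GDB1 and GLC3 had 41.4 and 13.8 and 42.9 and 16.7. PGM2, the main phosphoglucomutase, had 54.3 and 15.9 RPKM, against 93.4 and 93.4 for its copy PGM1. For trehalose 2 of 6 were lower, TSL1, a regulatory subunit of the synthase, at 89.1 and 32.2 RPKM and the trehalase NTH1 at 112 and 54.3, whereas the synthase TPS1 had 215 and 140.2. In the list drawn up here for chaperone genes of Hsf1, 3 of 29 were higher and 2 lower (median 0.090). SIS1, an Hsp40, had 71.2 and 234 RPKM, FES1, an Hsp70 nucleotide exchange factor, had 48.5 and 120.2, and the mitochondrial HSP78 had 44.5 and 98.0. HSP30 and SSA4 were lower at 37.4 and 13.5 and 36.6 and 15.5 RPKM. HSP30 was counted in this list although it is a heat-induced membrane protein and not a chaperone. Genes against oxidants had 1 of 29 higher and 1 lower, with 35.3 and 104 RPKM for ATR1 and 131 and 52.0 for PRX1, the mitochondrial peroxiredoxin.

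Of 16 genes for glucose transport 6 were lower and 0 higher (median -0.46). HXT4 (YHR092C, chrVIII:287081-288811) had 297 RPKM in WT and 23.7 in snf2∆. HXT6 and HXT7, near-identical high-affinity copies among which reads could be split, had 265 and 39.3 and 228 and 18.6. HXT3 and HXT1, the low-affinity carriers, had 1583 and 603 and 208 and 84.2 RPKM, and HXT2 had 175 and 121, under 2-fold. Of the regulators, MTH1 was lower at 59.4 and 12.1 RPKM, while its copy STD1 had 60.0 and 56.7, the repressor RGT1 had 35.2 and 33.5 and the sensors SNF3 and RGT2 had 25.5 and 16.5 and 23.9 and 39.6. SUC2, invertase, was at the threshold and higher, at 48.6 and 100.1 RPKM (log2 change 1.03), and dropped under 2-fold with unscaled RPKM.

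Of 29 glycolytic genes 2 were higher and 3 lower (median 0.056). HXK1 was lower at 318 and 58.5 RPKM while the hexokinase used in glucose, HXK2, had 1089.7 and 1355, and TDH1 was lower at 1392 and 323 while TDH3, the main glyceraldehyde-3-phosphate dehydrogenase, had 11590.3 and 7971. GPM1, phosphoglycerate mutase, was lower at 4135 and 1896 RPKM and its minor copy GPM2 higher at 10.7 and 30.3. TDH2 was the other higher gene, at 1426 and 2876 RPKM, and fell under 2-fold with unscaled RPKM. PDC1, pyruvate decarboxylase, and PGK1 were just under 2-fold at 0.99 and 0.91, ADH1 was at 0.04 and pyruvate kinase CDC19 at 0.07. In the glycerol path copies also differed in direction. GPP1, a glycerol-3-phosphatase, had 571 RPKM in WT and 3096 in snf2∆, a ratio of 5.43 (95% interval 5.32 to 5.53), and its copy GPP2 had 270.1 and 55.3, a ratio of 0.205 (95% interval 0.192 to 0.219). GPD2, one of the pair of dehydrogenases before them, was higher at 80.0 and 231 RPKM, and the other, GPD1, had 69.6 and 57.7.

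Respiratory genes lay below the median gene in most cases but few passed 2-fold. Of 29 nuclear genes of the respiratory chain 5 were lower and 0 higher (median -0.47), with 98.0 and 32.0 RPKM for CYT1, cytochrome c1, 110.3 and 49.5 for RIP1, the Rieske protein, and 101 and 27.7 for COX5B. The 17 ATP synthase genes ranged from -2.09 to -0.042, with a median of -0.58, and 1 was lower, INH1, the inhibitor of the enzyme, at 133 and 30.6 RPKM. HAP4, the activating subunit of the factor for these genes, had 32.1 and 18.1 RPKM. In the citric acid cycle 2 of 20 were higher and 2 lower: aconitase ACO1 and citrate synthase CIT1 were lower at 240.2 and 99.0 and 172 and 73.7 RPKM, and IDH1 and the pyruvate carboxylase PYC1 higher at 53.4 and 114 and 97.0 and 204. Both rises fell under 2-fold with unscaled RPKM. Of 21 genes for gluconeogenesis, ethanol and acetate use 3 were higher and 3 lower, among them MDH2, cytosolic malate dehydrogenase, with 56.9 and 179 RPKM and YAT2 with 16.4 and 64.7, against IDP2 with 20.3 and 5.21.

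**Figure D3:**
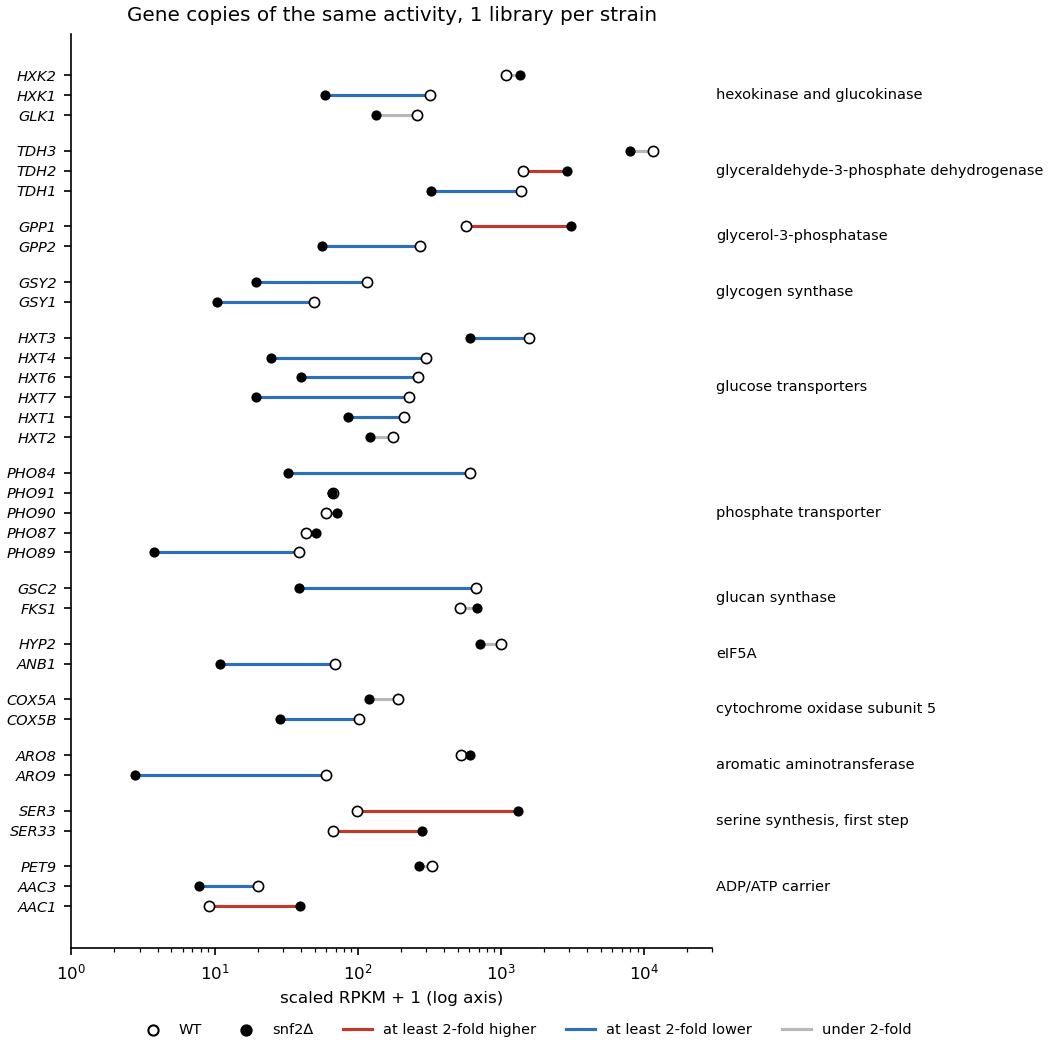
Scaled RPKM + 1 (log axis) in WT (open circles) and snf2∆ (filled circles) for genes that carry the same activity, in groups of copies, 1 library per strain. Red lines are at least 2-fold higher, blue at least 2-fold lower and grey neither, and GPP1 and GPP2, TDH2 and TDH1, and AAC1 and AAC3 move in opposite directions.

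The share that each copy gave to the summed RPKM of its group changed accordingly. GPP1 made up 67.9% of the glycerol-3-phosphatase RPKM in WT and 98.2% in snf2∆, while the sum went from 841 to 3152. For glucan synthase the sum went from 1188 to 713 RPKM, and the share of GSC2, the copy used in stress, from 56.6% to 5.34%. FKS1, the copy of growing cells, had 515 and 675 RPKM. PHO84 made up 74.5% of phosphate transporter RPKM in WT and 14.3% in snf2∆, and the 6 glucose transporters HXT1, HXT2, HXT3, HXT4, HXT6 and HXT7 together went from 2756 to 889.9 RPKM. ANB1, the hypoxic eIF5A, had 68.6 and 9.86 RPKM and HYP2, its aerobic copy, 994 and 714, while among ADP/ATP carriers AAC3 was lower at 19.0 and 6.82, AAC1 higher at 8.17 and 38.4 and PET9, the main copy, had 328 and 265.

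Of 13 genes that yeast uses without oxygen and for sterol uptake, 7 were lower and 1 higher, and the median was -1.35. The cell wall mannoproteins TIR1, TIR3 and TIR4 had 64.2 and 11.6, 42.3 and 5.53 and 21.2 and 5.03 RPKM, HEM13, of haem synthesis, had 302 and 55.2, and COX5B and ANB1 were lower as given. The higher member was ROX1, the haem-dependent repressor of such genes, with 15.6 RPKM in WT and 66.3 in snf2∆. UPC2, an activator of sterol uptake and synthesis, was lower at 104 and 25.3 RPKM and its copy ECM22 was not, at 49.1 and 54.6. In ergosterol synthesis 2 of 24 were higher, ERG4 and ERG10, with 98.2 and 263 and 150.4 and 332 RPKM, and 3 lower, UPC2, HMG1 with 82.7 and 35.5 and ERG5 with 63.0 and 26.9. Fatty acid synthase was lower in both subunits, FAS1 at 696 and 248 RPKM and FAS2 at 827 and 411, while acetyl-CoA carboxylase ACC1 had 302 and 316 and the desaturase OLE1 1499 and 1182. For phospholipids 2 of 20 were lower, INO1, inositol phosphate synthase, with 23.9 and 3.26 RPKM and CHO2, which methylates phosphatidylethanolamine, with 208 and 35.8. INO2 and INO4, their activators, had changes of -0.06 and 0.39.

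Targets of calcineurin, the phosphatase that answers to calcium, had 9 of 20 members lower and 0 higher (median -0.67). GSC2 (YGR032W, chrVII:548264-553951) had 673 RPKM in WT and 38.0 in snf2∆, the kinase CMK2 had 905 and 78.9, and PLB1, phospholipase B, had 404 and 41.3. RCN1 and RCN2, regulators of calcineurin, had 85.3 and 18.1 and 248 and 65.5 RPKM, and PMC1, the vacuolar calcium pump, 132 and 30.5. ENA1, ENA2 and ENA5, near-identical sodium pumps, were lower at 285 and 127, 289 and 139 and 257 and 127 RPKM. The subunits themselves, CNA1, CMP2 and CNB1, were at 0.13, 0.01 and 0.15, and their target factor CRZ1 was at -0.77.

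The list for genes that part the daughter cell from the mother had 10 of 15 members lower and 0 higher. Its median of -1.40 stood against 0.0020 over all genes. The largest fall in it, -2.69, was that of PST1, a cell wall protein given below with the wider list. DSE1 (YER124C, chrV:407342-409063) had 406 RPKM in WT and 81.9 in snf2∆, DSE2 had 671 and 262, EGT2 had 272 and 60.4 and SCW11, a glucanase of the septum, had 238 and 65.6. ASH1, a repressor in daughter cells, had 86.6 and 32.1 RPKM, and CTS1, the chitinase that cuts the septum, was under 2-fold at 1432 and 874 RPKM (log2 change -0.71). In the wider list of cell wall genes 8 of 40 were lower and 1 higher (median -0.33). SED1 had 2219.7 and 235 RPKM, PST1 143 and 21.3 and SPI1 150.5 and 23.4, while the abundant wall proteins CCW12 and CWP2 had 13322 and 9201 and 2817 and 1759.6, under 2-fold. MNC1, counted in that list although it encodes a small membrane protein, had the largest fall there, at 259 and 6.90 RPKM. The open reading frame YBR056C-B, listed at 239.7 and 6.48, has no place in the annotation used here. Its systematic name is next to that of MNC1 (YBR056W-A), and whether it holds reads of MNC1 was not tested.

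Few genes of the cell cycle passed. Of 25 G1 and M/G1 genes 5 were lower and 0 higher, among them HO, the endonuclease of mating-type switching, with 21.5 RPKM in WT and 1.89 in snf2∆, RME1, a repressor of meiosis, with 123 and 35.7, and the cyclin PCL9 with 28.7 and 9.96. The G1 cyclins CLN1, CLN2 and CLN3 were at -0.60, 0.60 and 0.39. CLB1 was the 1 lower gene of 26 in the mitotic list, at 119 and 15.7 RPKM, whereas its copy CLB2 had 37.3 and 60.4. Histone genes and genes for DNA synthesis had 0 called of 16 and 0 of 21, with 735 and 868 RPKM for HHF2 and 167 and 145 for RNR1.

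Pumps and metal genes varied one by one. Of 24 genes for drug resistance 6 were lower and 2 higher: the polyamine transporters TPO4, TPO1 and TPO2 had 138 and 10.4, 71.9 and 14.1 and 240.0 and 70.5 RPKM and the multidrug carrier QDR2 70.5 and 8.70, while SNQ2 was higher at 103 and 219.9 and PDR5, the main pump, had 185 and 235. Among 26 iron genes 2 were higher, the permease FTR1 with 31.7 and 77.3 RPKM and FIT2 with 6.94 and 21.3, and 1 lower, FIT1 with 16.6 and 6.34. FET3, the ferroxidase that works with FTR1, was under 2-fold at 37.0 and 55.5 RPKM. Of 17 copper and zinc genes 5 were lower and 1 higher. The zinc transporter ZRT1 was lower at 67.9 and 19.2 RPKM, as were CUP2, the copper-dependent activator, at 156 and 50.5 and the metallothionein genes CUP1-1 and CUP1-2, which are identical copies, at 1861 and 742 and 1573 and 637. CTR1, the copper transporter, was higher at 26.8 and 80.4 RPKM. In the vacuole list 5 of 24 were lower, among them the protease PRB1 with 459 and 142 RPKM and its inhibitor PBI2 with 143 and 28.7, and 0 were higher.

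A large part of the housekeeping genes lay within 2-fold, as did most genes, since 9.39% of all 5835 were called. Lists without a call are picked out here by that trait. In 14 of 68 lists, with 360 kept members, no gene was called: besides purines, histones, DNA synthesis and transfer RNA synthetases they held RNA polymerase II, the proteasome, mitochondrial ribosomal proteins, the vacuolar ATPase, secretion and folding in the endoplasmic reticulum. Cytosolic ribosomal protein genes had 4 of 138 higher and 0 lower, with a median of 0.45 and quartiles of 0.32 and 0.58, so that most lay slightly above the median gene without passing. RPS9A was one of the higher genes, at 41.7 and 175 RPKM, and its close copy RPS9B had 784 and 1076. Ribosome assembly genes had a median of -0.21 and 1 of 67 lower, DHR2 at 47.5 and 22.4 RPKM. Of 62 annotated snoRNAs 11 (17.7%) were lower, against 5.84% of all genes, and 1 was higher. Among them SNR66 had 99.5 and 21.6 RPKM and SNR47 34.8 and 8.80. How evenly the libraries recovered such short RNAs was not tested.

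The remaining subunits of Swi/Snf kept their levels within 2-fold. Of 11 kept, 0 were called. SWI1, which anchors activators, had 49.9 and 25.7 RPKM (log2 change -0.93), SNF11 had 56.5 and 35.3 RPKM, and SNF5, SWI3 and SNF12 had 27.6 and 32.4, 35.0 and 44.1 and 15.1 and 19.3. With unscaled RPKM SWI1 passed 2-fold. STH1, the ATPase of the related RSC complex, had 92.1 and 75.6 RPKM, and of 14 RSC genes 1 was lower, HTL1 at 65.7 and 21.6. Other remodellers had 0 called of 23, with 43.8 and 53.1 RPKM for ISW1, 67.0 and 59.8 for CHD1 and 77.8 and 86.6 for INO80.

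Genes that earlier work had linked to Swi/Snf went both ways in this medium. Of 12 kept, 5 were lower and 3 higher (median -0.26). PHO84, HO, INO1, PHO5 and HXT1 were lower as given. GAL1, which is off in glucose, had 13.0 and 10.4 RPKM (log2 change -0.30), ADH2 had 103 and 99.4 RPKM and PHO8 158 and 135. The higher genes were SER3, CHA1 and SUC2. SER3 is in this list although, as given above, it is the known example of a gene that Swi/Snf lowers. Early meiotic genes stayed low, with 3 of 35 lower and 0 higher: NDJ1 at 17.4 and 2.21 RPKM, MER1 at 28.1 and 8.62 and REC114 at 10.4 and 3.92. Genes within 10 kb of a chromosome end had 7 of 49 lower and 2 higher, against 269 and 161 of 4847 for genes 50 kb or more away. COS10 and COS6, of a subtelomeric family, were lower at 93.6 and 32.1 and 217 and 92.3 RPKM, and PAU6 and PAU18, members of the seripauperin family whose sequences are near-identical, at 84.7 and 28.2 and 80.0 and 26.7.

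Of the 548 called genes, 328 were in none of the lists, 125 of them higher and 203 lower. Among the largest rises were ATG41, of autophagy, with 97.8 RPKM in WT and 618 in snf2∆, MCH4, a carrier of the monocarboxylate type, with 37.8 and 175, and UTH1, a cell wall protein, with 629 and 2216. ECM13, NFG1, HOT13 and TDA6 were higher from low levels, by 2.68, 2.23, 2.13 and 2.12. NFG1 (chrXII:229966-230451) lies near AFB1 (chrXII:228908-229582), which was left out and had 13.0 and 178 RPKM. Whether their rises are linked was not tested. CDC28, the cyclin-dependent kinase, was among those higher too, at 17.6 and 45.7 RPKM. Falls included NCW2, a cell wall protein, with 553 and 49.3 RPKM, EEB1, which makes ethyl esters, with 112 and 13.5, INA1 with 448 and 59.9, and ZEO1 with 1009.6 and 138. The yapsins YPS1 and YPS3, proteases of the cell surface, had 351 and 77.3 and 118 and 25.6 RPKM, and KTR2 and MNN1, mannosyltransferases of the Golgi, had 60.6 and 8.46 and 60.7 and 15.7. SUR1 and SCS7, of sphingolipid synthesis, were lower at 149.6 and 25.1 and 277 and 73.6 RPKM. UTH1, CDC28, SRG1, INA1, ZEO1, SNR66, SNR47, RPS9A, the yapsins, KTR2, MNN1, SUR1, SCS7, ODC2, PPN2, RIB1, RIB5 and PCL5 were chosen after their values were seen.

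Some called genes were neighbours, meaning next to each other among kept annotated genes and not overlapping. Genes that were not kept can lie between them, and HXK1 and IRC7, a divergent pair, are 9154 bases apart. Of 569 neighbouring pairs with a lower gene, 40 (7.03%) had both genes lower, and among divergent pairs 13 of 132 (9.85%). The share expected without any link between neighbours was not worked out. For higher genes it was 13 of 346 (3.76%). SPL2 and ARO9 are divergent with 608 bases between them, and both changed by -4.42. BAP2 and TAT1, PHO3 and PHO5, HXT4 and HXT1, and the yapsin genes are further pairs in which both were lower. TDH2 and MET3, which are divergent, were both higher, and MET3 changed by 2.48. HIS5 and PRM5, a gene for a pheromone-regulated membrane protein, were divergent and higher at 1.64 and 2.89. Without strand in the library kit, reads that run past the end of a gene into a convergent neighbour cannot be told apart from its own.

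The letters of known sites were counted in the same windows for 5286 protein-coding genes, on both strands. TGACTC was in 7.09% of all windows, in 21.4% of those of genes higher and in 2.34% of those of genes lower. It was in 9 of 10 windows of arginine genes, 8 of 12 for branched-chain amino acids and 5 of 6 for histidine, but in 9 of 22 for purines, of which none was called. CACGTG was in 3.46% of all windows, in 6 of 10 for sulfate genes and in 12 of 27 for phosphate genes, lists that moved in opposite directions. CCCCT was in 19.2% of all windows, 27.8% of those lower and 14.8% of those higher, and in 26 of 32 for the stress genes, where 11 of the 15 lower genes held it. TATAAA was in 41.8% of all windows, 53.3% of those higher and 52.2% of those lower. CGATGAG, of ribosome assembly genes, was in 7.26%, 4.95% and 4.01% of all, higher and lower windows. Neither the presence nor the absence of these letters shows whether a factor acts there.

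**Figure D4:**
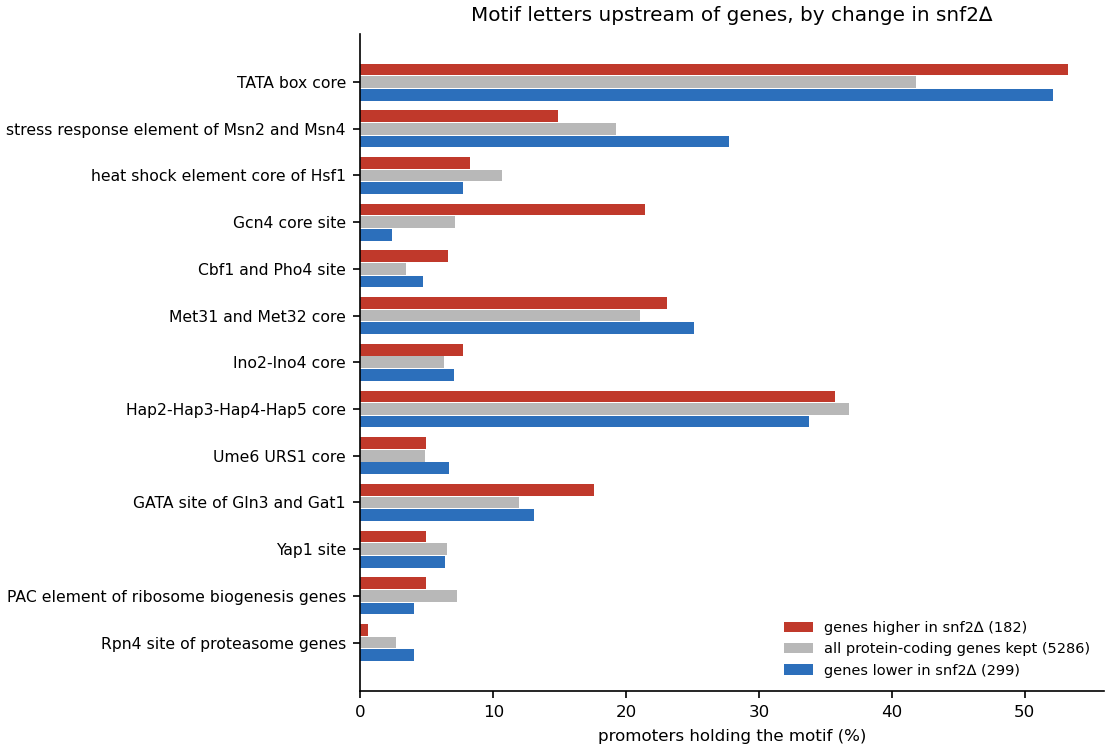
Share of upstream windows (percent, 250 bases each) that hold the letters of known sites, for 182 genes higher in snf2∆ (red), 299 lower (blue) and all 5286 protein-coding genes kept (grey). The Gcn4 core is in 21.4% of windows of genes higher and 2.34% of those lower, and the stress element in 14.8% and 27.8%.

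Splicing efficiency, a fraction per intron or isoform for which the authors' formula is not stated, was given in both libraries as 272 values for 258 kept genes, since some genes have several introns or isoforms. The median was 0.697 in WT and 0.707 in snf2∆, and 203 values (74.6%) were above WT, by a median of 0.010 over all 272. The fraction was at least 0.1 above WT in 30 cases and at least 0.1 below in 7. In ribosomal protein genes 86 of 104 values were above WT, with a median difference of 0.0055. RPL22B, a ribosomal protein gene, had 0.165 in WT and 0.604 in snf2∆, and RPS9A, whose RPKM was higher, had 0.710 and 0.880. MND1, a meiotic gene, was at 0 and 0.310, and DMC1, another meiotic gene, at 0.312 and 0. Further falls were in YRA1, an mRNA export factor that controls its own splicing, with 0.776 and 0.493, and FES1, whose RPKM was higher, with 0.478 and 0.276. The reads behind these fractions are not known, so they carry no interval. These genes were chosen after their values were seen.

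The second pair of libraries, ume6∆ and ume6∆snf2∆, shares no library with the first. It also differs in mating type, with STE2 at 346 and 14.3 RPKM and STE3 at 4.44 and 137 in ume6∆ and ume6∆snf2∆, and in 2 marker genes, MET17 at 1.30 and 2134 and LYS2 at 106 and 0.349. In that pair 196 genes (3.36%) were higher without SNF2 and 378 (6.48%) lower. Of the 207 genes higher in the first pair, 63 were higher in both, which is 30.4% of the first list and 32.1% of the second. Of the 341 lower, 94 were lower in both, 27.6% and 24.9% of the lists. The change had the same sign in 73.4% of genes higher in the first pair and in 72.4% of those lower, where 47.8% of all genes were above 0 in the second pair and 52.2% below or at 0. Across all 5835 genes, which are not independent replicates, the changes of the pairs had a Pearson r of 0.30 and a Spearman rho of 0.21.

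The values of several groups without Ume6 stand beside these. Arginine synthesis had 9 of 10 genes higher in the second pair (median 1.62), with ARG3 at 37.4 RPKM in ume6∆ and 195 in ume6∆snf2∆. SER3 had 52.0 RPKM in ume6∆ and 1177 in ume6∆snf2∆, LEU1 379.7 and 2099 and SNZ1 40.5 and 159. Sulfate uptake and reduction, in contrast, had 0 of 10 higher and 1 lower (median -0.33): SUL2 had 89.3 and 70.8 RPKM, MET3 365 and 234 and MET5 319.5 and 249, so that in ume6∆ these genes lay above the WT library of the first pair. MET17, which consumes the sulfide, was present in ume6∆snf2∆ alone among the 4 libraries, and its part in these values was not tested. Daughter separation had 6 of 15 genes lower in the second pair and the phosphate list 6 of 27, with DSE1 at 221 and 64.4 RPKM and PHO84 at 137 and 42.8. Calcineurin targets had 0 of 20 called there. GSC2 had 44.3 RPKM in ume6∆ and 25.3 in ume6∆snf2∆ and CMK2 30.8 and 36.6, so that the ume6∆ values lay nearer to snf2∆ than to WT. Glycogen genes also had 0 of 13 called, with GPH1 at 17.9 and 10.3 RPKM. The ume6∆ value likewise lay nearer to snf2∆ than to WT for TPO4, MNC1, HXT7 and EEB1. They had 14.6, 10.8, 25.7 and 18.2 RPKM in ume6∆, which has SNF2. Among genes higher in snf2∆ the same held for CAR1, MET6 and GPP1, with 310, 1798 and 3418 RPKM in ume6∆. They had 514, 3141 and 4085 RPKM in ume6∆snf2∆ and were under 2-fold in the second pair. GPP2, lower in snf2∆, had 90.2 RPKM in ume6∆ and 48.3 in ume6∆snf2∆, also under 2-fold. For SER3, LEU1 and SNZ1 the ume6∆ values given above lay nearer to WT. MRH1, at 1086 RPKM in ume6∆, lay nearer to WT. What sets the single WT library apart for such genes was not tested. The list of Msn2 and Msn4 stress genes had 7 of 32 lower and 3 higher in the second pair (median 0.098). Sterol uptake and anaerobic genes had 1 of 13 lower and 1 higher there (median 0.081). Single genes were lower in both pairs. HSP12 had 142 and 15.0 RPKM in the second, HO 74.3 and 6.54, INO1 1114 and 272, CHO2 218 and 15.8 and SED1 1606 and 186. No test of the difference between the pairs was possible.

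**Figure D5:**
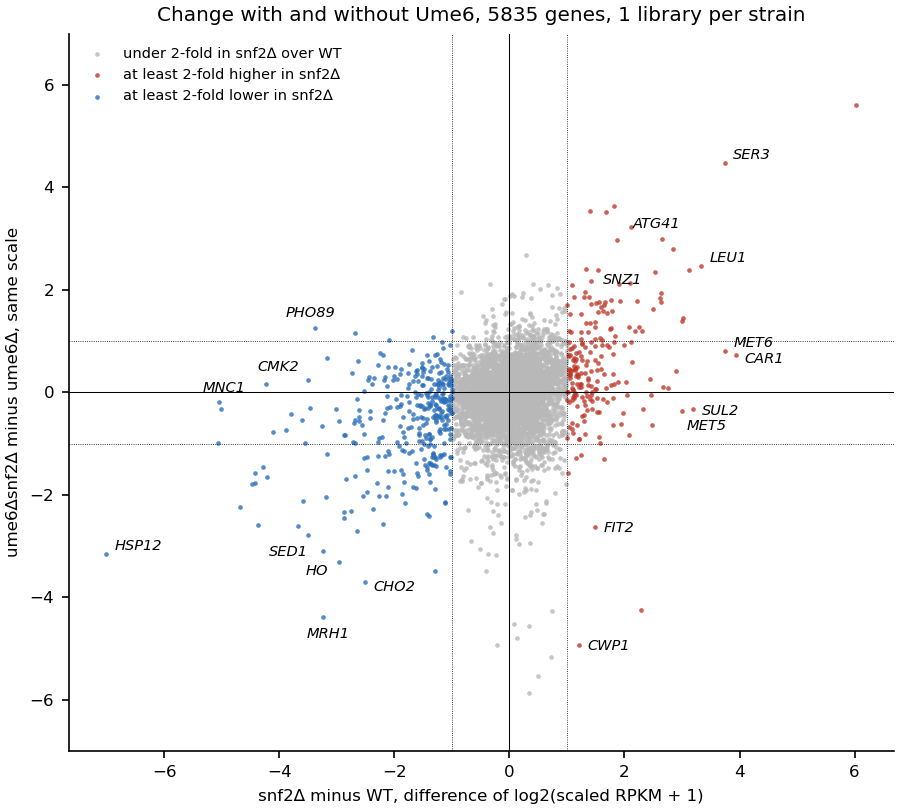
Change of 5835 genes without SNF2 in otherwise wild-type cells (horizontal) and in cells lacking Ume6 (vertical), each as a difference of log2(scaled RPKM + 1) between 2 libraries. HSP12, SED1, HO and SER3 move the same way in both, SUL2, MET5 and CMK2 lie near 0 on the vertical axis, and CWP1, FIT2 and PHO89 change sign.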

How the data were processed

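Per the labels' protocols, RNA from hot phenol was treated with DNase and prepared with the TruSeq V2 kit. The deposited values are RPKM per gene, computed by the authors, and a splicing efficiency given as a fraction per intron or isoform, whose formula is not stated and which has 4 cells that are not numbers in the snf2∆ column. The submitters' processing notes name sacCer3, CASAVA and STAR 2.4.0, without roles.

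Here each RPKM column was divided by its median ratio to the gene geometric mean, and changes were taken with a pseudocount of 1 among genes with a mean of 10 or more, with a threshold of 2-fold. Values were whole multiples of 1 read for 99.5 to 99.6% of entries above 0 (tolerance 0.05), which gave reads for exact 95% intervals. Depth was 27.7, 25.7, 30.2 and 17.4 M reads in WT, snf2∆, ume6∆ and ume6∆snf2∆. Upstream windows came from R64 of RefSeq. Python 3.11.15, numpy 2.4.6, pandas 2.3.3, scipy 1.17.1 and matplotlib 3.10.9 were used. Genes were named as the 25 largest rises and the 25 largest falls among genes with a standard symbol, as list members by size of change with up to 2 of the smallest, as members of groups of copies, and as neighbours of SNF2, besides those said to be chosen after their values were seen. The members and the lists were chosen with earlier results of these data known. Alternatives were unscaled RPKM, scaling on both columns alone, pseudocounts of 0.1 and 5, and filters at 1, at 30 and none.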

Additional observations from a re-analysis of the deposited data

Results flagged for a closer look

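For 12 genes the change without SNF2 was at least 2-fold in opposite directions in the pairs with and without Ume6, and 7 of them fall under the rule for named genes. Each value rests on 1 library per strain, and the difference between the pairs was not tested. CWP1, a cell wall protein, changed by 1.22 in snf2∆ over WT and by -4.94 in ume6∆snf2∆ over ume6∆, with 9.56, 23.5, 266 and 7.67 RPKM in WT, snf2∆, ume6∆ and ume6∆snf2∆. FIT2, of iron retention, changed by 1.49 and -2.64, with 6.94, 21.3, 219 and 34.3 RPKM in the same order. LYS20 changed by 1.16 and -1.29, MDH2 by 1.64 and -1.30, and TDH2 by 1.01 and -1.57, where the first is under 2-fold with unscaled RPKM. INH1 changed by -2.09 and 1.01, and PHO89 by -3.38 and 1.26, the latter with 38.1, 2.76, 2.00 and 6.16 RPKM.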

How the results depend on the processing

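The counts of 207 higher and 341 lower genes became 175 and 406 with unscaled RPKM, 214 and 332 with scaling on both columns alone, 225 and 355 with a pseudocount of 0.1, and 173 and 284 with one of 5. A filter at 1 RPKM gave 242 and 434, no filter 244 and 437, and a filter at 30 RPKM gave 167 and 219. Counting annotated genes that overlap no other, an alternative chosen after seeing the data, gave 175 and 299. Of 136 list counts 11 moved by over 1.5 times with unscaled RPKM and 17 with the filter at 30, where fewer genes were kept. With that filter the lower genes went from 12 to 6 in the phosphate list, from 6 to 2 for glycogen, from 7 to 3 for sterol uptake and anaerobic genes and from 3 to 1 for fusel alcohols. Of the named genes past 2-fold, 0 changed sign with unscaled RPKM or either pseudocount, while changes near 0 can do so, since unscaled RPKM moves the median gene to -0.10. No paired analysis was possible because each strain has 1 library. Mating type and marker genes differ between the libraries, and their part cannot be told apart from that of Snf2. Splicing fractions carry no depth.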

Other observations

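Genes that the level filter removed hold further values. CTT1, the cytosolic catalase, was listed at 17.1 RPKM in WT and 5.79 in snf2∆, and PDC6, a minor pyruvate decarboxylase, at 1.15 and 5.50. GND2 had 6.57 and 4.39 RPKM, and CIT3 had 4.01 and 6.89. Among genes kept, YLR041W, which has no place in the annotation used here and whose systematic name is next to that of AFB1 (YLR040C), rose from 11.3 to 86.6 RPKM. AFB1, which was left out, had 13.0 and 178 RPKM, and whether YLR041W holds its reads was not tested.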
